A study of Mus musculus with 12 samples.

Results

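The postsynaptic density is the protein meshwork under the membrane of an excitatory synapse, and its scaffold proteins hold glutamate receptors in place and tie them to signalling enzymes and to the actin of the dendritic spine. MAGUK proteins of the Dlg family bind receptors, Dlgap proteins link them to Shank proteins, and Shank proteins in turn bind Homer. In the striatum most excitatory synapses sit on the spines of medium spiny neurons, which receive input from cortex and thalamus, while gephyrin does the corresponding work at inhibitory synapses. The set described here holds 37 such scaffold and signalling genes, chosen by gene name from a table of 57132 features, and all 37 were among the 13902 features that passed the filter on counts used here.

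RNA was sequenced from the striatum of 10-month-old C57Bl/6 mice, 6 without the trace amine-associated receptor gene Taar5 (TAAR5-KO) and 6 wild-type littermates (WT), after the cortex had been cut away from a coronal slice and ribosomal RNA had been depleted. No treatment is named for either group. Per the study's methods, each group held males and females in equal number. Each library came from 1 animal, but the columns of the table, NK1 to NK6 for TAAR5-KO and NK7 to NK12 for WT, could not be tied to single animals, so sex was not modelled. Whole-tissue RNA does not separate fewer cells of a type from less RNA per cell.

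The libraries held 11269915 to 34824450 counts, of which ribosomal RNA took 64.3% to 88.1%, and 1819907 to 6399188 counts lay outside ribosomal RNA. Taar5 went against the labels, with 1 to 6 counts in the libraries labelled TAAR5-KO and 0 to 2 in those labelled WT, so each direction below is that of the label, written KO or WT. Markers of medium spiny neurons (MSN) were detected in every library. Their sums leaned higher in KO, with overlapping ranges, and none passed an adjusted p under 0.1. The log2 difference (KO minus WT, n = 6 each) was 0.27 for D1 MSN (exact permutation test, adjusted p = 0.147). It was 0.22 for D2 MSN (exact permutation test, adjusted p = 0.101) and 0.26 for pan-MSN markers (exact permutation test, adjusted p = 0.147). The summed astrocyte markers were lower in KO (140.6 to 187 CPM) than in WT (195 to 219 CPM, exact permutation test, p = 0.00216, the smallest p that 6 against 6 can give, adjusted p = 0.0238 over 11 marker lists), and those of microglia (adjusted p = 0.0238) and of mature oligodendrocytes (572 to 701 CPM in KO, 609.6 to 781 CPM in WT, exact permutation test, adjusted p = 0.0952) were lower too. A set of 8 cortical pyramidal neuron markers summed to 51.7 to 123 CPM in KO and 53.02 to 133 CPM in WT (exact permutation test, p = 0.916), a wide spread within both labels.

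None of the 37 genes differed between KO and WT at an adjusted p under 0.1 by edgeR's likelihood ratio test, against 1.65% of all features tested (0.957% higher and 0.691% lower in KO). The quasi-likelihood test called 0 of 37 (0.453% of all features) and DESeq2 called 0 (1.27%), with no adjusted p for Homer3, Lin7b and Pick1. At an unadjusted p under 0.05 the likelihood ratio test took 4 members, all higher in KO, which is 10.8% of the set against 11.9% of all features, while the quasi-likelihood test took 4 (12.0%) and DESeq2 took 5 (9.73%). In no member were the 6 KO libraries separate from the 6 WT libraries, as they were for 1.01% of all features (0.619% with KO higher and 0.388% with KO lower). The share of members with a small p was thus near that of the whole table.

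The differences were small and well bounded for most of the set. The fitted log2 fold change (KO over WT, on the TMM scale) was above 0 for 22 members and below 0 for 15, with a median of 0.0042 against -0.0061 over all features. The 95% interval lay within 0.5 log2 units of 0 for 31 of the 37 genes, and the median standard error was 0.114 against 0.168 over all features. The widest intervals belonged to Homer3 and Lin7b, which had 3 or fewer counts in 2 and 5 libraries respectively.

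**Figure D1:**
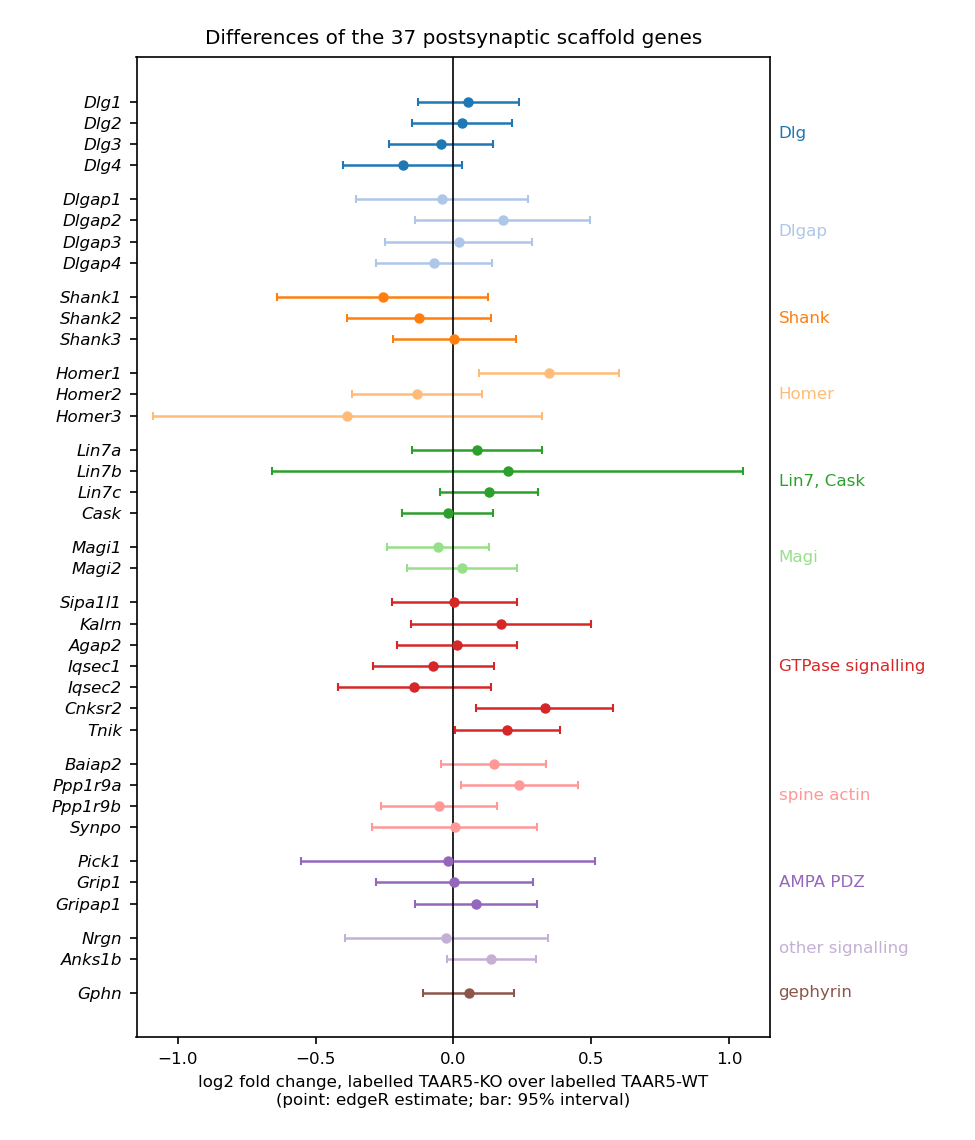
Log2 fold change of each of the 37 genes (x axis, KO over WT label, points are edgeR estimates and bars 95% intervals), grouped by role. Most intervals cross 0, and those of Homer1, Cnksr2, Ppp1r9a and Tnik lie above it.

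Levels differed between members far more than between labels. Per kilobase of merged exon, Nrgn, which encodes the calmodulin-binding protein neurogranin, was the most abundant member (24.2 ± 6.59 CPM per kb, SD, n = 12). Ppp1r9b, which encodes the spine protein spinophilin, followed at 22.0 ± 2.47 CPM per kb, a difference from Nrgn within their spread, and the Arf GTPase-activating protein gene Agap2 reached 16.9 ± 1.99 CPM per kb. Homer3 (0.101 ± 0.0581 CPM per kb) and Pick1 (0.1003 ± 0.0326 CPM per kb) were the lowest, again within each other's spread. Of the exon bases of Pick1, 18.6% lie under exons of another gene on the same strand, so its level is uncertain to that extent. Of the exon bases of Nrgn, 12.7% lie under exons of a gene on the other strand.

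Homer proteins bind Shank and group I metabotropic glutamate receptors, and a short, activity-induced form of Homer1 lacks the part that crosslinks them. The counts joined all forms of a gene. Homer1 (chr13:93436143-93541637, GRCm39, plus strand) had the smallest p of the set. Its level was lowest at 33.1, median 44.3 and highest at 52.9 CPM in KO, and lowest at 28.8, median 31.5 and highest at 42.3 CPM in WT. All 6 KO libraries lay above the WT median and 4 lay above every WT library, but the groups overlapped. The log2 fold change of Homer1 was 0.35 ± 0.13 (SE, 95% interval 0.09 to 0.60), and its adjusted p was 0.194 by the likelihood ratio test, 0.250 by the quasi-likelihood test and 0.146 by DESeq2. Without library NK4, NK5 or NK12 the likelihood ratio test gave an adjusted p of 0.0706, 0.0701 or 0.0843 (fits in which 3.001%, 2.14% and 0.9996% of all features passed), and with the trend of each library on GC content removed the difference was 0.19 with an adjusted p of 0.766. Homer2 (log2 fold change -0.13 ± 0.12) and Homer3 (-0.38 ± 0.36) did not pass the test, and 25.4% of the exon bases of Homer3 lie under exons of a gene on the other strand.

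Because members of a family can be set against each other within a library, without any scaling factor, the share of each paralog in its family was compared on counts per kb. Of the Homer family, Homer1 made up 76.6% at the lowest, 80.4% at the median and 85.6% at the highest in KO, and 70.7%, 75.3% and 76.9% in WT. All but 1 of the KO libraries lay above all of WT, and that library, NK5, lay below the highest WT library. The mean share was 80.9% ± 3.33 (SD, n = 6) in KO and 74.7% ± 2.35 (n = 6) in WT (two-sided exact permutation test, p = 0.00433, adjusted p = 0.0433 over the 20 shares compared). Homer2 (chr7:81250229-81357275, minus strand) took 13.5% at the lowest, 17.7% at the median and 19.6% at the highest in KO and 19.6%, 21.0% and 26.7% in WT. Its mean share was 17.3% ± 2.25 in KO and 21.8% ± 2.55 in WT (exact permutation test, p = 0.00433, adjusted p = 0.0433), and since the shares of a family sum to a whole this is not a separate result from that of Homer1. Both shares were counted in the adjustment, so the adjusted p of Homer1 is lower than it would be with Homer2 left out. Without library NK11, the WT library with the lowest Homer1 share, the adjusted p of both shares was 0.130, and with the GC trends removed it was 0.249. Homer1 has the lower GC content of the pair, 39.4% against 45.6%.

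The other 18 shares did not pass. The nearest were Ppp1r9a against Ppp1r9b (23.0% ± 2.12 in KO, 19.7% ± 1.81 in WT, n = 6 each, exact permutation test, adjusted p = 0.130), Dlg4 within the Dlg family (26.0% ± 1.85 and 28.7% ± 2.00, adjusted p = 0.156) and Dlgap2 within the Dlgap family (11.2% ± 1.29 and 9.70% ± 0.897, adjusted p = 0.156).

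Among the GTPase regulators and other signalling genes, Cnksr2 (chrX:156604432-156826290, minus strand), a scaffold of Ras signalling, came nearest to the threshold. It read 84.1 CPM at the lowest, 106 at the median and 115 at the highest in KO, and 59.6, 79.1 and 96.6 CPM in WT. All 6 KO libraries were above the WT median and 4 above every WT library. The log2 fold change of Cnksr2 was 0.33 ± 0.13 (SE) with an adjusted p of 0.213 by the likelihood ratio test, and it was 0.0913 without library NK4 and 0.688 with the GC trends removed. Agap2 (chr10:126911153-126929038, plus strand) ranged from 91.7 over a median of 101 to 114 CPM in KO and from 85.6 over 96.4 to 121 CPM in WT, so that the WT range enclosed that of KO. Its log2 fold change was 0.01 ± 0.11. The kinase gene Tnik (0.20 ± 0.098, likelihood ratio test adjusted p = 0.406), the guanine nucleotide exchange factor gene Kalrn (0.17 ± 0.17), the Rap GTPase-activating protein gene Sipa1l1 (0.00 ± 0.12) and the Arf exchange factor genes Iqsec1 (-0.07 ± 0.11) and Iqsec2 (-0.14 ± 0.14) did not pass either.

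Neurabin and spinophilin, encoded by Ppp1r9a and Ppp1r9b, are related proteins that bring protein phosphatase to spine actin. Ppp1r9a (chr6:4902917-5165661, plus strand) read 81.0 CPM at the lowest, 94.2 at the median and 106 at the highest in KO and 66.8, 83.6 and 85.7 CPM in WT. In KO 3 libraries lay above every WT library, and the others lay among them. The log2 fold change of Ppp1r9a was 0.24 ± 0.11 (likelihood ratio test, adjusted p = 0.331). Ppp1r9b (chr11:94881861-94897725, plus strand) ranged from 99.0 over a median of 107 to 126 CPM in KO and from 97.3 over 111 to 136 CPM in WT, with a log2 fold change of -0.05 ± 0.11. Baiap2, which shapes spine membrane and actin (0.15 ± 0.097), and Synpo, a gene of the spine apparatus (0.00 ± 0.15), did not pass. Baiap2 was the only member with an unadjusted p under 0.05 once the GC trends were removed (0.27, likelihood ratio test, adjusted p = 0.285).

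In the core chain of Dlg, Dlgap and Shank no gene passed. Dlg4, the major MAGUK of mature excitatory synapses, had a log2 fold change of -0.18 ± 0.11 (likelihood ratio test, adjusted p = 0.525), and all 6 KO libraries lay under its WT median while the ranges overlapped (46.9 to 60.7 CPM in KO, 48.2 to 76.7 CPM in WT). Dlg2 (chr7:90125880-92098455, plus strand), the Dlg gene with the highest level per kb, ranged from 83.2 over a median of 94.5 to 97.1 CPM in KO and from 79.5 over 87.6 to 101 CPM in WT. Its log2 fold change of 0.03 ± 0.092 had a 95% interval of -0.15 to 0.21. Dlg1 (0.05 ± 0.094) and Dlg3 (-0.04 ± 0.095) were as near to 0.

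Dlgap3 (chr4:127062997-127130815, plus strand), the member of its family with the highest level per kb, ranged from 20.9 over a median of 25.2 to 30.0 CPM in KO and from 18.6 over 23.7 to 33.1 CPM in WT, with a log2 fold change of 0.02 ± 0.14. The differences of Dlgap1 (-0.04 ± 0.16), Dlgap2 (0.18 ± 0.16) and Dlgap4 (-0.07 ± 0.11) did not pass. Shank1 (chr7:43959677-44009996, plus strand) spread most among the members with more than 3 counts in every library (coefficient of variation 29.2%, n = 12), from 43.4 over a median of 60.6 to 81.2 CPM in KO and from 42.7 over 74.7 to 102 CPM in WT, with a log2 fold change of -0.26 ± 0.19 (likelihood ratio test, adjusted p = 0.643). Only 1 KO library lay above the WT median of Shank1, yet both labels began at nearly the same level. Shank2 (-0.12 ± 0.13) and Shank3 (0.00 ± 0.11) did not pass.

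Lin7 proteins and Cask form a complex that sorts receptors and adhesion proteins. Lin7c (chr2:109721198-109731348, plus strand) ranged from 18.8 over a median of 22.7 to 23.9 CPM in KO and from 18.1 over 20.3 to 21.6 CPM in WT, with a log2 fold change of 0.13 ± 0.090. In KO 4 libraries lay above every WT library, but the difference had a likelihood ratio test adjusted p of 0.604. Lin7c has the lowest GC content of the set, 37.7%, and its difference was -0.054 with the GC trends removed. Lin7a (0.08 ± 0.12), Cask (-0.02 ± 0.084) and the sparsely counted Lin7b (0.20 ± 0.44) did not pass, and 24.4% of the exon bases of Lin7b lie under exons on the other strand. The Magi scaffolds were even between labels, with Magi2 (chr5:19432034-20909790, plus strand) at 24.999, 27.6 and 31.96 CPM as the lowest, median and highest in KO and 21.5, 27.1 and 32.4 CPM in WT (0.03 ± 0.10). Magi1 had a log2 fold change of -0.05 ± 0.094.

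Pick1, Grip1 and Gripap1 encode PDZ and partner proteins that act in the trafficking of AMPA receptors, and their differences were -0.02 ± 0.27, 0.00 ± 0.15 and 0.08 ± 0.11. Gripap1 (chrX:7656004-7686806, plus strand), the highest of them per kb, ranged from 6.58 over a median of 7.14 to 9.19 CPM in KO and from 5.15 over 7.01 to 7.83 CPM in WT. Nrgn (chr9:37455788-37464200, minus strand) ranged from 25.3 over a median of 32.9 to 50.1 CPM in KO and from 24.3 over 33.1 to 53.0 CPM in WT, a range nearly as wide in each label, with a log2 fold change of -0.03 ± 0.19 between labels. The synapse-to-nucleus signalling gene Anks1b had the opposite form, a narrow KO range of 67.5 to 73.1 CPM, and all 6 KO libraries lay above its WT median (0.14 ± 0.082, likelihood ratio test, adjusted p = 0.519). Gphn (chr12:78273153-78731546, plus strand), the inhibitory scaffold, ranged from 10.7 over a median of 11.7 to 12.1 CPM in KO and from 9.75 over 11.02 to 11.8 CPM in WT, with a log2 fold change of 0.06 ± 0.084.

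**Figure D2:**
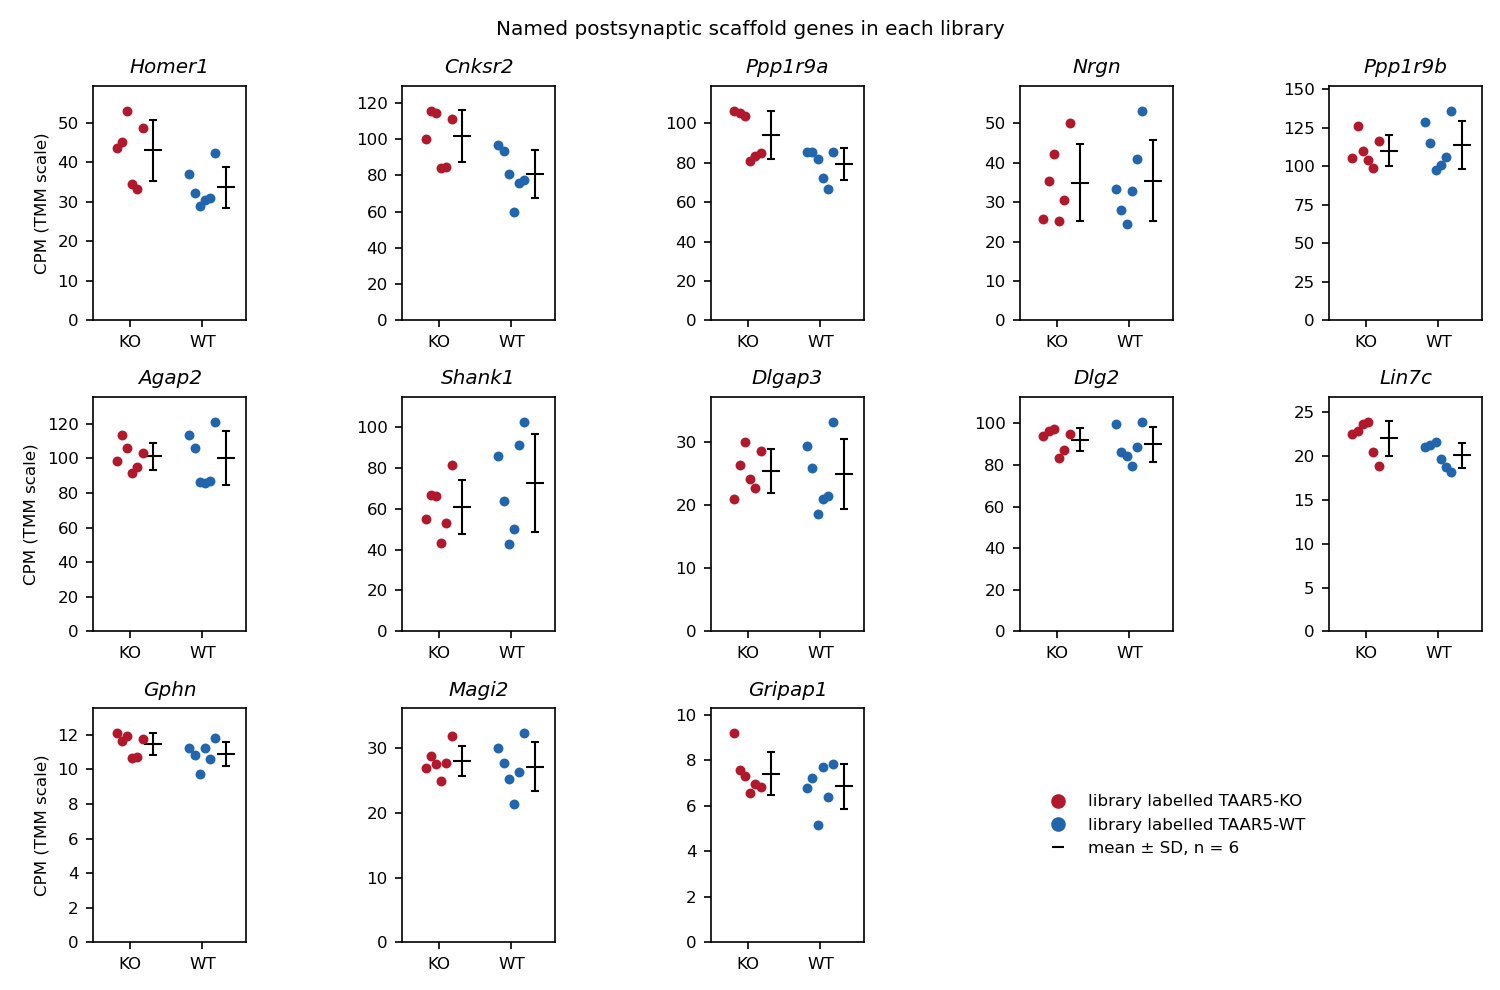
CPM on the TMM scale (y axis from 0) of the 13 named genes in each library, with KO in red, WT in blue and the mean ± SD (n = 6) as a bar. The labels overlap in every panel, and Homer1, Cnksr2 and Lin7c have 4 KO libraries above all of WT.

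The differences ran with the base composition of the genes. Across the 37 genes, which are not independent replicates, the log2 fold change and the GC content of the exons had a Pearson's r of -0.49 and a Spearman's correlation of -0.47, and over all 13902 features the values were -0.34 and -0.40. Of the 19 members with 37.7% to 50.9% GC, 15 had a value above 0, and of the 18 members with 51.1% to 63.9% GC, 7 did. The libraries themselves differed in this respect: the fitted log2 CPM at 55% GC minus that at 45% GC ran from -0.18 to -0.0016 in KO and from -0.06 to 0.19 in WT (difference -0.12, two-sided exact permutation test, n = 6 each, p = 0.0152). This is the relation over all features seen by library, not a separate result. With each library's trend removed, r across the members was 0.079 (r = -0.028 over all features), the median difference was 0.07 in both GC classes, and 0 of 37 members passed the likelihood ratio test. Because the trends were fitted on GC content over these same features, an r near 0 follows from their removal and is no test. On that scale 25 members were above 0 and 12 below, with a median of 0.074 against 0.0054 over all features. What sets these trends was not tested.

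**Figure D3:**
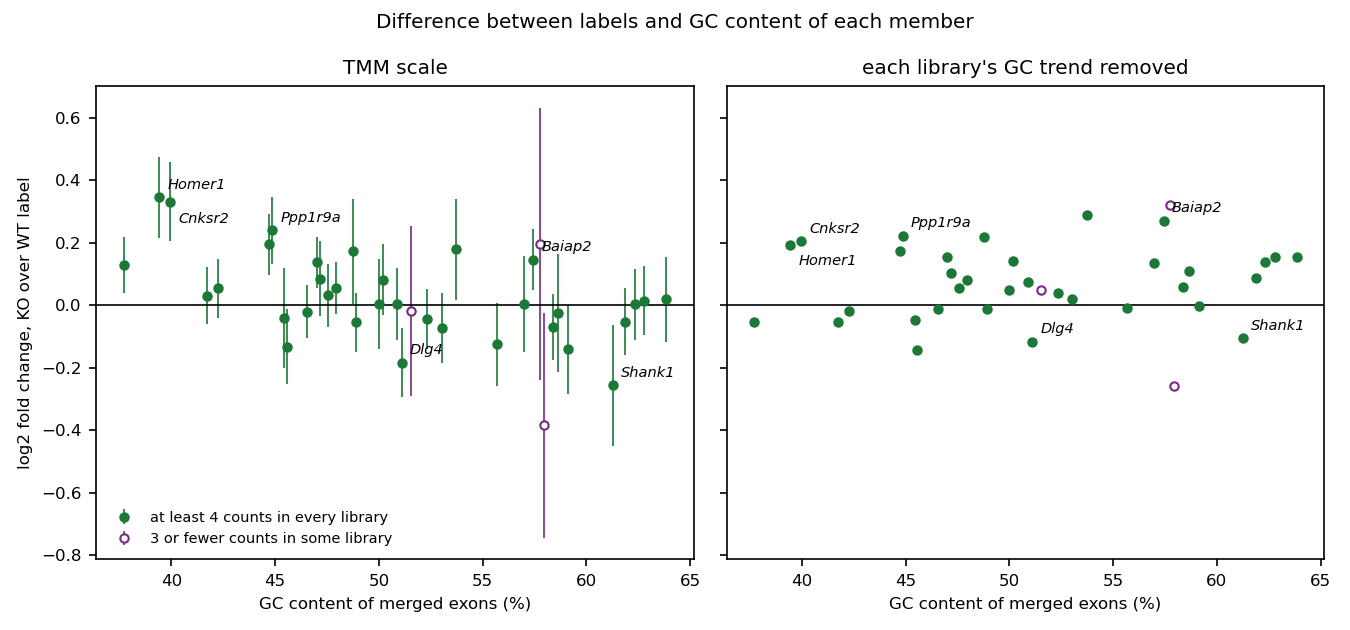
Log2 fold change (y axis, KO over WT) against exon GC content (x axis, %) for the 37 genes, on the TMM scale with bars of 1 SE (left) and with each library's GC trend removed (right, without bars). Homer1 and Cnksr2 sit at the low-GC end. The downward slope on the left (r = -0.49) is taken out on the right (r = 0.079) by the removal of the fitted trends.

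The members varied across libraries with the level of cortical pyramidal neuron markers, within both labels. Several scaffold genes are known to be strongly expressed in pyramidal neurons of the cortex, and the summed level of 8 markers of those cells (Slc17a7, Neurod6, Neurod2, Tbr1, Emx1, Cux2, Rorb and Fezf2) differed between libraries by more than a factor of 2. In an edgeR model with the genotype label and the log2 marker level, 16 of the 37 genes had a slope past an adjusted p of 0.1 by the likelihood ratio test, all 16 positive, which is 43.2% of the set against 7.34% of all features with a positive slope (4.81% had a negative one). The median slope was 0.23 log2 units per doubling of the markers in the set and -0.01 over all features. Pearson's r with the marker level was positive for 33 members, and its median was 0.65 against -0.02 over all features.

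Dlgap1 (chr17:70276068-71128408, plus strand) followed the markers most closely. It read 41.4 CPM in NK4, the library with the lowest marker level, and 80.5 CPM in NK12, the library with the highest, and libraries of both labels lay along the same line. Across 12 libraries its r was 0.97 and its Spearman's correlation 0.98 (permutation test, p = 1e-05 for each, the smallest that 100000 resamples can give, among 37 relations computed), r was 0.98 without the 2 libraries farthest from the median, NK4 and NK9, and it was 0.96 within KO and 1.00 within WT. The slope of Dlgap1 was 0.61 ± 0.077 (likelihood ratio test, adjusted p = 1.80e-12). Kalrn (chr16:33789443-34393902, minus strand) had an r of 0.93 and a Spearman's correlation of 0.90 (permutation p = 1e-04 and 0.00014), an r of 0.90 without those 2 libraries, and a slope of 0.65 ± 0.079 (adjusted p = 1.40e-13). Shank1 had an r of 0.90 and a Spearman's correlation of 0.89 (permutation p = 0.00015 and 0.00027), an r of 0.83 without those 2 libraries, and a slope of 0.74 ± 0.10 (adjusted p = 1.53e-10). Nrgn had an r of 0.86 and a Spearman's correlation of 0.91 (permutation p = 0.00060 and 1e-04), an r of 0.78 without them, and a slope of 0.66 ± 0.11 (adjusted p = 5.92e-07).

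Not every member behaved in this way. The r of Lin7c was -0.35 and that of Homer3, which had only 0 to 16 counts per library, was -0.43. Neither had a slope past the threshold (likelihood ratio test, adjusted p = 0.600 and 0.398), and Baiap2 had an r of -0.099. Homer1 had a slope of 0.40 ± 0.090 (adjusted p = 2.91e-04), and its r was 0.96 within KO and 0.73 within WT. Cnksr2 had an r of 0.99 within KO but 0.16 within WT, where NK11 and NK12 had high markers and no high Cnksr2, and its slope did not pass (adjusted p = 0.219). The summed pan-MSN markers did not run along with the cortical ones, being lowest in NK11 (158 CPM, against 254 to 341 CPM in the other 11 libraries). With the cortical marker level in the model as a covariate, Homer1 (0.36, likelihood ratio test, adjusted p = 0.00570) and Cnksr2 (0.33, adjusted p = 0.0678) passed the threshold between labels, which is 5.41% of the members, against 4.39% of all features in that fit (610 of 13902). Whether cortical tissue left in the slice carried the shared variation was not tested.

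**Figure D4:**
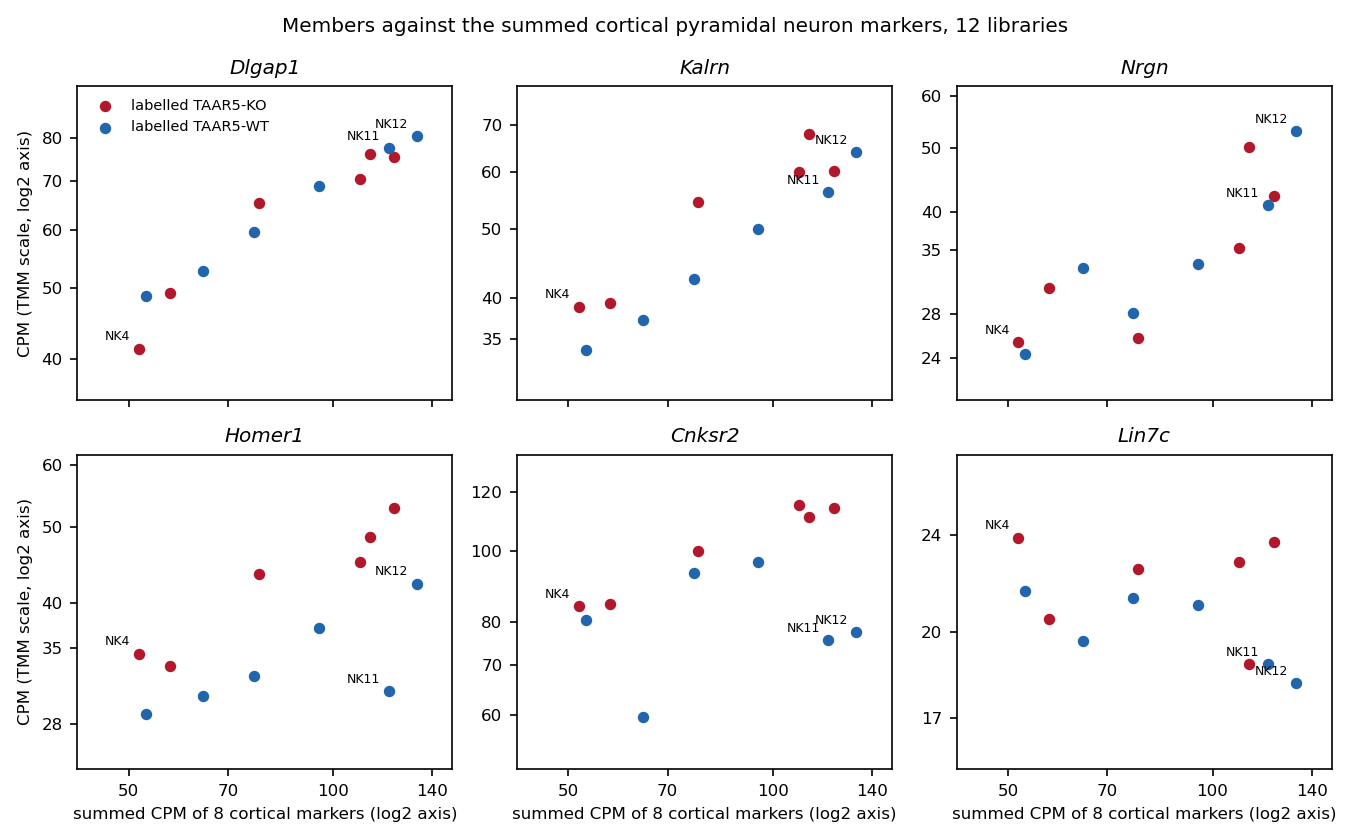
CPM of 6 members (y axes, log2 scale) against the summed CPM of 8 cortical markers (x axis, log2 scale) in the 12 libraries, KO in red and WT in blue, with NK4, NK11 and NK12 named. Dlgap1, Kalrn and Nrgn rise with the markers in both labels, Homer1 does so with KO above WT, and Lin7c does not.

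After the label means were subtracted, the members also varied with each other. The median Pearson's r over the 666 pairs was 0.53, and 87 pairs were above 0.8, a description over 12 shared libraries in which depth and composition are common to all genes. No median over pairs of all features is given beside it, so the covariation cannot be called particular to this set. The cortical marker level was not subtracted, and Dlgap1 and Kalrn, the closest pair, had an r of 0.97 and 0.93 with that level. The 56 pairs of the same role had a median r of 0.59, with 6 above 0.8. The 610 pairs of different roles had a median of 0.51, with 81 above 0.8. The closest pairs crossed roles, as 610 of all 666 pairs do. They were Dlgap1 and Kalrn at 0.97, Dlg2 and Dlgap2 at 0.96, Dlg4 and Shank3 at 0.95 and Agap2 and Ppp1r9b at 0.94. Lin7c and Nrgn were the most opposed pair at -0.70, and Homer3 (median r -0.36 with the other members), Lin7c (-0.27), Grip1 (-0.099) and Baiap2 (0.00) stood outside the shared pattern. Homer3 had only 0 to 16 counts per library, so its r is limited by depth. Without the members that had 3 or fewer counts in some library, the median r was 0.59 over 561 pairs.

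**Figure D5:**
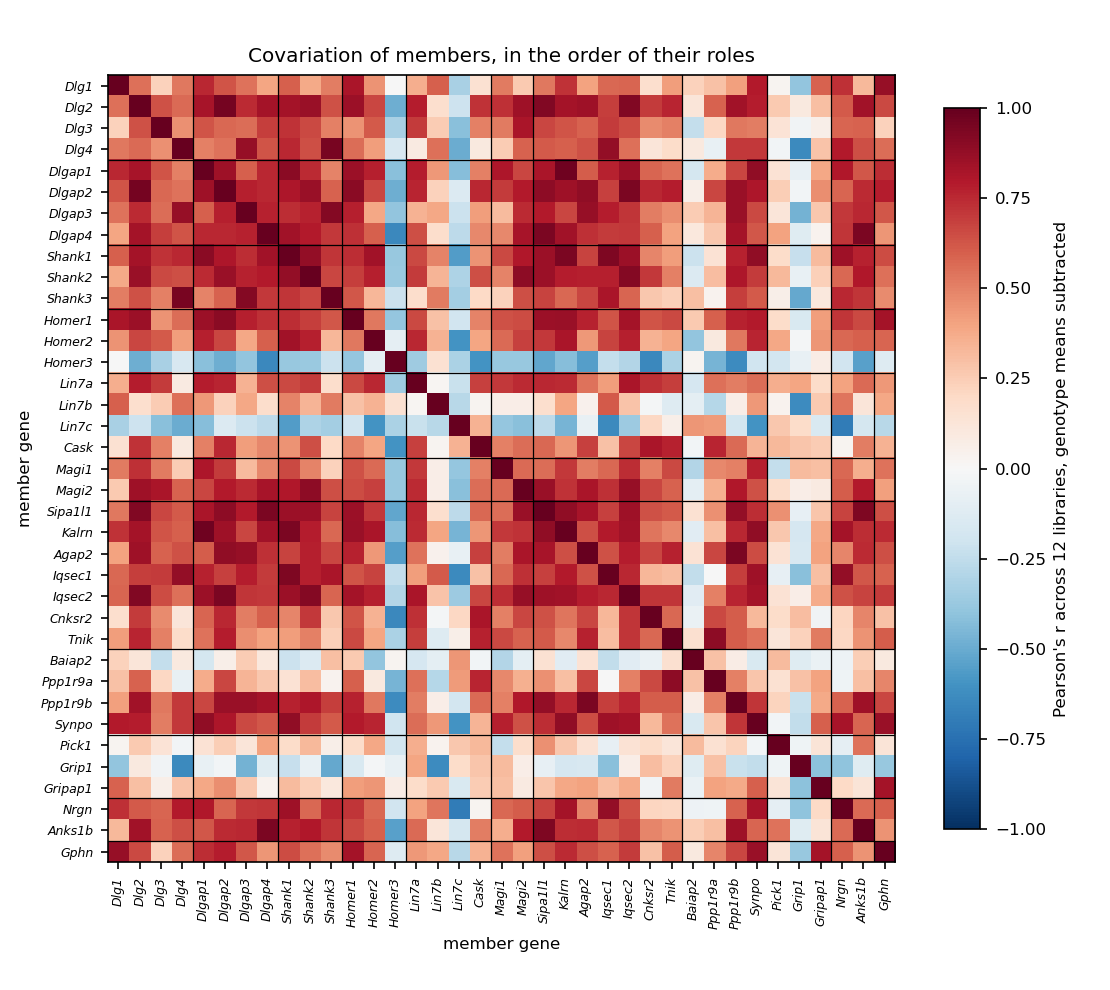
Pearson's r (colour, -1 to 1) between every pair of the 37 genes across 12 libraries after subtraction of the label means, in the order of their roles, with lines between roles. Most of the field is positive (median 0.53), and the rows of Homer3, Lin7c, Baiap2, Pick1 and Grip1 are pale or blue.

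Of 61 further genes of excitatory and inhibitory postsynapses, 60 were tested, and 2 of them passed the likelihood ratio test (3.33%, against 1.65% of all features), 1 in each direction. Cttnbp2 (chr6:18366477-18514842, minus strand), whose product binds cortactin in spines, read 13.5 CPM at the lowest, 16.2 at the median and 17.98 at the highest in KO and 10.6, 12.97 and 14.5 CPM in WT, with 5 KO libraries above all of WT (log2 fold change 0.33 ± 0.095, likelihood ratio test, adjusted p = 0.0592). Iqsec3 (chr6:121349892-121450637, minus strand), an Arf exchange factor gene of inhibitory synapses, read 15.4, 18.5 and 20.4 CPM in KO and 18.3, 23.5 and 24.96 CPM in WT, with 3 KO libraries under all of WT (-0.32 ± 0.10, adjusted p = 0.0934). Neither passed the quasi-likelihood test (adjusted p = 0.139 and 0.180), under which 0 of the 60 were called (0.453% of all features) and 11, or 18.3%, had an unadjusted p under 0.05 (12.0% of all features). DESeq2 called both (adjusted p = 0.0343 for Cttnbp2 and 0.0666 for Iqsec3) and Lrrc7 (adjusted p = 0.0807), 3 of the 60 against 1.27% of all features. With the GC trends removed neither passed the likelihood ratio test, where Cttnbp2 had a nearly equal log2 fold change of 0.31 (adjusted p = 0.155) and Iqsec3 a smaller one of -0.22 (adjusted p = 0.476), and on leaving out 1 library at a time the call of Cttnbp2 was lost in 7 of 12 fits (without NK1, NK2, NK6, NK7, NK10, NK11 or NK12, with an adjusted p of up to 0.196). The call of Iqsec3 was lost in 9 of 12 (all but those without NK6, NK9 or NK10, with an adjusted p of up to 0.270).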

How the data were processed

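Striatal RNA of 12 mice was sequenced single-end from directional libraries. Per the labels and the study's methods, the authors trimmed reads with cutadapt 4.1, aligned them to GRCm39 with STAR 2.7.11b and deposited raw gene counts from featureCounts 2.0.6, and the strand setting of the counting is not given in the sources used here. Exons of 11 members overlap exons on the other strand, so their counts are uncertain to that extent. On the same strand, other genes overlap the exons of Pick1 (18.6% of bases), Magi2 (1.79%) and Dlg2 (1.26%). The table holds 12 further columns that were not used.

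Features that reached a CPM of 0.5 in 3 or more libraries entered edgeR 4.0.16 (TMM, likelihood ratio test, Benjamini-Hochberg, adjusted p under 0.1), with its quasi-likelihood test and DESeq2 1.42.0 beside it. The filter, test, adjustment and threshold follow the study's methods, which name CPM normalization but not TMM. With the CPM filter on TMM library sizes, 13053 features were tested, as many as the study reports. That fit held 35 members, of which 0 were called. Standard errors are Wald, and 95% intervals are 1.96 standard errors wide on each side. The scripts were tested on simulated counts. A count of 3 equals 0.0679 to 0.362 CPM, which covers counting error only. GC trends are loess fits (span 0.5) over all features, from GRCm39 and the authors' exons.

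Members, role groups and lists were chosen with earlier results of these data known. Values per library are given for the 3 members with the smallest p, since none was called, and for the member with the highest CPM per kb in each role group, and listed postsynaptic genes are named where called. Other members shown were picked after their values were seen. The cortical slope, adjusted over all features, replaced a permutation test adjusted over the members after the data were seen. One listed cortical marker is not reported here and was left out of the marker sum. P-values of label differences are set against the spread between these animals, which also holds differences of sex, dissection and library preparation. Those of slopes and correlations with the marker level do not test a difference between labels.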

Additional observations from a re-analysis of the deposited data

Results flagged for a closer look

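Of 74 groups of 6 libraries (37 members in KO and in WT), 3 held a library whose gap to its nearest neighbour exceeded Dixon's 95% critical value, and chance alone flags about 1 group in 20. Lin7a read 4.94 CPM in NK10 against 6.79 to 7.72 CPM in the other WT libraries (gap 0.712 of the range). Homer3 read 0.844 CPM in the same library against 0.288 to 0.438 CPM in the others (gap 0.632), on 7 counts, and NK10 had the fewest counts outside ribosomal RNA, 1819907. Magi1 read 10.4 CPM in NK4 against 13.4 to 15.1 CPM in the other KO libraries (gap 0.688), NK4 being the library with the lowest cortical marker level.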

How the results depend on the processing

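No paired analysis was possible because the columns carry no replicate numbers of the labels. No member was called under 22 of the 26 alternatives. With the cortical marker level as a covariate 2 were called (5.41%, against 4.39% of all features), and leaving out 1 library gave 0 to 2 (2 without NK4, 1 without NK5 and 1 without NK12, where 3.001%, 2.14% and 0.9996% of all features passed). With no scaling beyond library size the median of all features was -0.49, that of the members -0.54, and the named members that turned below 0 were Homer1 (-0.28), Cnksr2 (-0.24), Ppp1r9a (-0.36), Agap2 (-0.58), Dlgap3 (-0.58), Dlg2 (-0.53), Lin7c (-0.38), Gphn (-0.46), Magi2 (-0.50) and Gripap1 (-0.48), none past the test.

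Other changes of sign were of values near 0, except that of Lin7c (0.13 before). With no filter beyond 1 count, Agap2 was at -0.012 and Dlgap3 at -0.010. With the length trend removed, Nrgn was at 0.028 and Dlg2 at -0.019. With the GC trend removed, Nrgn was at 0.11, Ppp1r9b at 0.087, Dlg2 at -0.054 and Lin7c at -0.054, and the quasi-likelihood test on that scale, added after seeing the data, gave 0.11, 0.088, -0.053 and -0.050 in that order. With the ribosomal RNA share as a covariate, Nrgn was at 0.12 and Ppp1r9b at 0.020, and with the cortical covariate Nrgn was at 0.014. Under the ribosomal RNA covariate 28 members were above 0 and 9 below, with a median of 0.078 against -0.00074 over all features. Leaving out 1 library gave -0.16 to 0.13 for Nrgn, -0.087 to 0.0018 for Ppp1r9b, -0.025 to 0.074 for Agap2, -0.040 to 0.12 for Dlgap3 and -0.013 to 0.087 for Magi2. Of 325 alternatives over the 13 named members, 277 kept the direction and the side of the threshold, 42 changed sign and 6 passed the threshold.

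Of the other postsynaptic genes, 0 were called by the quasi-likelihood test, with library size only, with no filter, with the GC trend removed (by either test), with the share of ribosomal RNA in the model and at an adjusted p under 0.05, and 6 (10.0%, against 4.39% of all features) with the cortical covariate. Leaving out 1 library gave 0 to 4 (0 without NK2, NK7, NK11 or NK12, 1 without NK1, NK3, NK6 or NK10, and 4, or 6.67% against 3.001% of all features, without NK4). Of the shares of paralogs, 0 passed with the GC trend removed, and leaving out 1 library gave 0 (NK11) to 4 (NK4 or NK9). The slope on the cortical markers passed for 37 members with library size only and 12 to 20 on leaving out 1 library, and 25 correlations passed a permutation test adjusted over the members. Of the 11 marker lists, 3 differed between labels, 0 with library size only and 2 to 6 on leaving out 1 library (6 without NK6). The median r between members was 0.57 with the GC trend removed, 0.98 with library size only and 0.46 to 0.58 on leaving out 1 library. The cause of these changes was not tested. Depth limits Homer3, Lin7b and Pick1.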
